A study of Mus musculus with 4 samples.

Results

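The promoters of 10 genes that encode subunits of the transcription factors NF-kB (Rela, Relb, Rel, Nfkb1 and Nfkb2) and AP-1 (Jun, Junb, Jund, Fos and Fosb) were compared with all other promoters for dimethylated lysine 9 of histone H3 (H3K9me2) in aortic media from male mice of the C57Bl/6J strain. The 10 were taken by gene name from a table of 26354 promoters, and all 10 are listed in it. At 7 of them H3K9me2 was below input, compared with 17.0% of all promoters, in a fit without the experiment as a term. With the experiment as a block it was below input at 3 (Rela, Jun and Fosb), compared with 8.30% of all promoters. At Relb, Rel and Nfkb1 it was near the level of the typical promoter. The study mapped H3K9me2 by chromatin immunoprecipitation and sequencing (ChIP-seq) in 2 independent experiments (v102 and v134). In each, 1 library was made after H3K9me2 immunoprecipitation and 1 from the associated input chromatin. All 4 came from tissue that was fixed without culture after fat, adventitia and endothelium had been stripped by hand, and the labels name no other treatment. The age of the mice and the number pooled for each experiment are not given in the sources used here. The cells were not sorted, so a low level in every cell and a mixture of marked and unmarked cells cannot be told apart.

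H3K9me2 is a mark of silenced chromatin that is written mainly by the methyltransferases EHMT2 and EHMT1. NF-kB and AP-1 are the transcription factors through which interleukin 1 and tumour necrosis factor switch on cytokine, chemokine and matrix metalloproteinase (MMP) genes in vascular smooth muscle cells (VSMCs). NF-kB is held in the cytoplasm by inhibitor proteins until these are degraded, and AP-1 is a dimer of a JUN and a FOS or another JUN protein that is raised by MAP kinase signalling. The study asked whether H3K9me2 at inflammatory target promoters limits binding of these factors. The comparison here was of the promoters of the factors' own genes.

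In GENCODE for GRCm38, the plus-strand genes Rela (5637483 to 5648130) and Nfkb2 (46304320 to 46312385) are both on chromosome 19. Relb (chromosome 7, 19606217 to 19629438), Rel (chromosome 11, 23736847 to 23770970) and Nfkb1 (chromosome 3, 135584655 to 135691547) lie on the minus strand. Fos (chromosome 12, 85473890 to 85477273) and Jund (chromosome 8, 70698949 to 70700616) lie on the plus strand. Jun (chromosome 4, 95049034 to 95052222), Junb (chromosome 8, 84974484 to 84978718) and Fosb (chromosome 7, 19302696 to 19310051) lie on the minus strand. Each counted window reaches 1 kb to either side of the transcription start and so covers the upstream promoter together with the 5′ end of the gene. Of the 10 windows, that of Jund shared 870 bases with the window of another listed gene, Gm11175, and its RefSeq start lies 1210 bases from its GENCODE start, so the window behind the Jund counts is less certain. The first RefSeq start of Nfkb2 lies 417 bases from the GENCODE start, and 2 further RefSeq starts lie 1375 and 1610 bases from it.

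RefSeq promoters of GRCm38.p6, from 250 bases before to 50 bases after the start, were matched for 8 of the 10 genes. Relb and Nfkb1 are named without sequence. The promoters shown are those of the pair of genes with 0 ChIP reads (Jun and Fosb), of Fos and Rela, which were also below input, of Nfkb2, and, for contrast, of Rel, whose ratio was near that of the median promoter. Capitals mark matches on either strand to the NF-kB consensus, the CArG box, the TATA box (TATAAA), the AP-1 site (TGANTCA), the cAMP response element (TGACGTCA) and its core (TGACGT), and the AP-1-like element of the Jun promoter (TGACATCA). The core lies within the full cAMP response element, so a match to the element also counts as a match to the core.
Jun, chr4:95052173-95052472, minus strand: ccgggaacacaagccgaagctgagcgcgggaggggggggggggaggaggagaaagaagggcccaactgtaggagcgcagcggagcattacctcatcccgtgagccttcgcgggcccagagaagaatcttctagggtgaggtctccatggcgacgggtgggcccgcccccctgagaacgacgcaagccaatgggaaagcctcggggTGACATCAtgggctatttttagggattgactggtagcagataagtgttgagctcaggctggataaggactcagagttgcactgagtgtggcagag
Fosb, chr7:19309996-19310295, minus strand: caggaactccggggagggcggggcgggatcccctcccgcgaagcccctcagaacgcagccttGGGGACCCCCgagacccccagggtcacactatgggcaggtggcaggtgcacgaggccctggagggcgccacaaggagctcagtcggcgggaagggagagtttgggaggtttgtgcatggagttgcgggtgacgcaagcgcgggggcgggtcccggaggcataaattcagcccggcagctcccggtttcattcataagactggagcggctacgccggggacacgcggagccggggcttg
Fos, chr12:85473640-85473939, plus strand: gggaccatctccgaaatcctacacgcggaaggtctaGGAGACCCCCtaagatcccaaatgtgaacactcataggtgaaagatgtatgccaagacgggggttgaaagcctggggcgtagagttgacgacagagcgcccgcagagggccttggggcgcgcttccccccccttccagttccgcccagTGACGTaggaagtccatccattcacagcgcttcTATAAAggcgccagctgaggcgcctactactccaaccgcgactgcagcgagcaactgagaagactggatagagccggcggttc
Rela, chr19:5637291-5637590, plus strand: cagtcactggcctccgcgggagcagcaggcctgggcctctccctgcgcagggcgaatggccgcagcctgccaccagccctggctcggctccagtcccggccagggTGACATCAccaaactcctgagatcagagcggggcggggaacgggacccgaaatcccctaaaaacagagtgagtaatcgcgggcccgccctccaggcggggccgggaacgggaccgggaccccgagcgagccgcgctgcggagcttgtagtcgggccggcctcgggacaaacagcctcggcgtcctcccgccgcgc
Nfkb2, first RefSeq start, chr19:46304487-46304786, plus strand: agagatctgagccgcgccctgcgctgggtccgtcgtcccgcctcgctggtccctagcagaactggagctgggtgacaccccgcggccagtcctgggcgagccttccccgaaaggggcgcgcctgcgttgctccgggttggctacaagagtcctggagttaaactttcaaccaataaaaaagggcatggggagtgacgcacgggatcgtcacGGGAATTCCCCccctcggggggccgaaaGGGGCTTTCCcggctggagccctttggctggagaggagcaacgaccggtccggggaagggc
Rel, chr11:23770920-23771219, minus strand: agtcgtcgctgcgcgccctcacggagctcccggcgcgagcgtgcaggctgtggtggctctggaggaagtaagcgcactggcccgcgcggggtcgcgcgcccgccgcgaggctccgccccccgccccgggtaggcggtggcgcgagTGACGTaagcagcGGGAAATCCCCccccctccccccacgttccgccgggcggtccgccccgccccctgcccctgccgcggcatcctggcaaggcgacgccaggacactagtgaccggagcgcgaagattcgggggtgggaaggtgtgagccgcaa
All 6 promoters shown are rich in G and C, with a GC content of 58.7% for Fos, 65.7% for Nfkb2, 68.3% for Fosb and 71.3% for Rela, Jun between Fos and Nfkb2 and Rel above Rela, compared with a median of 52.7% over 32851 RefSeq promoters. CpG dinucleotides numbered 15 in Jun and 42 in Rel, with the other 4 between, against a median of 7. Of the promoters not shown, Junb had a GC content of 65.3% and 21 CpG. Jund, at its RefSeq start, had 46.7% and 3 CpG, both below these medians. Positions are those of the leftmost base of a match, counted from the start, whose first base is 1. NF-kB matches stand in Nfkb2 at -39, -38 and -11 (the first pair overlap), in Rel at -92 and -91 (overlapping), in Fos at -214 and in Fosb at -188, and 8.46% of all RefSeq promoters hold such a match. The AP-1-like element stands in Jun at -45 and in Rela at -145 (3.62% of all promoters), and the core of the cAMP response element in Fos at -66 and in Rel at -105 (7.51%). Fos has a TATA box at -33 (13.6%). The AP-1 site (7.81%), the full cAMP response element (1.79%) and the CArG box (1.63%) had no match in these 6 windows. A match describes the letters of the window and is not a measured binding site.

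Over the listed promoters the ChIP libraries held 162233 reads in experiment v102 and 229605 in v134, and the input libraries 619100 and 1084349. These totals are sums over the table and not sequencing depths. Median counts per promoter in v102 and v134 were 4 and 5 in the ChIP and 20 and 37 in the input. The 10 subunit promoters were sampled about as well as the rest, with 17 to 26 input reads in v102 and 19 to 47 in v134. At the median ratio of the table, input coverage of this size would give between 6.16 and 11.7 ChIP reads per promoter over both experiments. The observed numbers ran from 0 to 9.

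**Figure D1:**
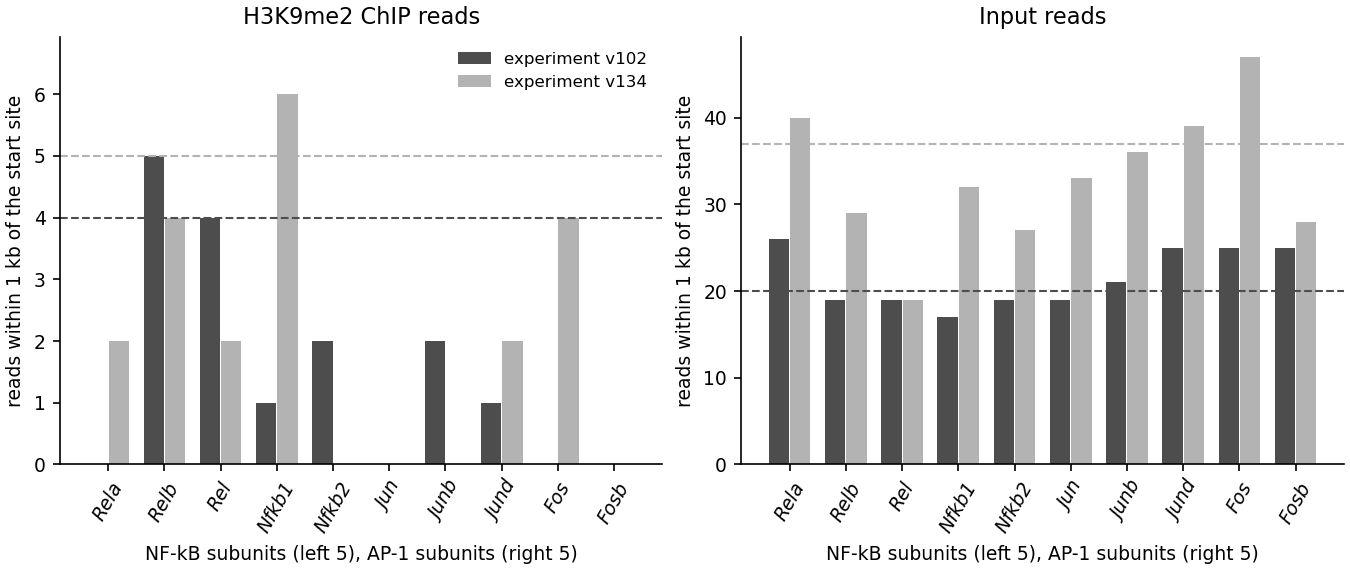
H3K9me2 ChIP reads (left) and input reads (right) within 1 kb of the start of each NF-kB and AP-1 subunit gene, with 1 bar per library (dark, experiment v102; light, v134) and dashed lines at the median of all 26354 promoters in that library. Input bars lie around the medians, whereas ChIP bars exceed their median only at Relb in v102 (5 reads against 4) and Nfkb1 in v134 (6 against 5), and Jun and Fosb have no ChIP bar.

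The deposited H3K9me2/input ratio, which is ChIP reads of both experiments divided by their input reads without scaling for library size, had a median of 0.0452 over the 10 promoters and of 0.162 over all promoters. It was below the median of the table at 9 of the 10 and below the 25th percentile (0.0780) at 7, and none reached the 75th percentile (0.343). By edgeR's quasi-likelihood test over all promoters (TMM normalization, Benjamini-Hochberg adjustment at 0.05), 7 of the 10 were below input, namely Rela, Nfkb2, Jun, Junb, Jund, Fos and Fosb, compared with 17.0% of all promoters. None was above input, at an adjusted or an unadjusted p, compared with 18.6% of all promoters. Below input here was tested against equal levels of ChIP and input as scaled by TMM, not against the typical promoter. On that scale the median promoter itself had a log2 fold change of -0.35, and distance from it was not tested. The experiment number pairs each ChIP with its input, and with it as a block 3 of the 10 stayed below input (Rela, Jun and Fosb), compared with 8.30% of all promoters. DESeq2 called 0.110% of all promoters below input and left the adjusted p of all 10 undefined. The test rests on 2 libraries against 2, for which an exact permutation test could not go below p = 0.333.

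Jun encodes c-JUN, the AP-1 partner with the strongest transactivation. Its promoter had 0 ChIP reads in v102 and 0 in v134, against 19 and 33 input reads. Fosb, a FOS protein induced by stimulation, likewise had 0 and 0 ChIP reads against 25 and 28 input reads. Both were therefore empty in both experiments, and were among 523 such promoters (1.98%) in the table. Taken to allow up to 3 reads over both experiments, a count of 0 puts the ratio at no more than 0.0577 for Jun and 0.0566 for Fosb, at least 2.81-fold and 2.86-fold lower than the median promoter. The two-sided 95% exact interval, which is used for the other promoters and is wider than this floor, reaches 0.0735 for Jun and 0.0721 for Fosb. By edgeR's quasi-likelihood test the adjusted p was 0.00118 for Jun and 0.000955 for Fosb, and 0.0140 and 0.0120 with the block.

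Fos encodes c-FOS, the classic immediate early gene of AP-1. Its promoter had the most input reads of the 10, with 25 in v102 and 47 in v134, and 0 and 4 ChIP reads. The ChIP reads were thus all from 1 experiment. The ratio of Fos was 0.0556 (95% exact binomial interval 0.0147 to 0.149, counting error only), its log2 fold change over input was -1.89 (standard error 0.70), and the adjusted p of edgeR was 0.0251 without and 0.0733 with the block.
Junb, a JUN protein that can restrain c-JUN, had 2 and 0 ChIP reads against 21 and 36 input reads, a ratio of 0.0351 (interval 0.00415 to 0.133) and a log2 fold change of -2.52 (standard error 0.89). Jund, the JUN protein that is present in resting cells, had 1 and 2 ChIP reads against 25 and 39 input reads, a ratio of 0.0469 (interval 0.00942 to 0.143) and a log2 fold change of -2.13 (standard error 0.78). The adjusted p of edgeR was 0.0185 for Junb and 0.0228 for Jund, and 0.0682 and 0.0594 with the block. At Junb the reads again fell in a single experiment, whereas at Jund both experiments gave a low count. All 5 AP-1 promoters were below input without the block, and their ratios ran from 0 to 0.0556.

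Among the NF-kB genes, Rela, which encodes the transactivating subunit p65, had 0 and 2 ChIP reads against 26 and 40 in the input. Its ratio was 0.0303 (interval 0.00359 to 0.114) and its log2 fold change -2.74 (standard error 0.86), with an adjusted p by edgeR of 0.00712 and of 0.0362 with the block. Nfkb2, which encodes p100, the precursor of p52 in the alternative pathway, had 2 and 0 ChIP reads against 19 and 27 input reads. The ratio of Nfkb2 was 0.0435 (interval 0.00511 to 0.166) and its log2 fold change -2.22 (standard error 0.93). Its adjusted p of 0.0483 was close to the threshold, and it was 0.109 with the block and 0.0511 without the 30 mitochondrial rows. Rela and Nfkb2 therefore had counts of the same size as the AP-1 genes.

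The other 3 NF-kB promoters lay near the median promoter. Relb, the partner of p52, had 5 and 4 ChIP reads against 19 and 29 input reads, and its ratio of 0.188 (interval 0.0809 to 0.386) was the highest of the 10. Rel, which encodes c-REL, a subunit best known from lymphocytes, had 4 and 2 ChIP reads against 19 and 19 input reads and a ratio of 0.158 (interval 0.0546 to 0.377). Nfkb1, which encodes p105, the precursor of p50, had 1 and 6 ChIP reads against 17 and 32 input reads and a ratio of 0.143 (interval 0.0546 to 0.317). Reads were present in both experiments at each of these 3 promoters, although at Nfkb1 mainly in v134. The log2 fold change was -0.15 at Relb (standard error 0.61), -0.41 at Rel (standard error 0.71) and -0.54 at Nfkb1 (standard error 0.66), with adjusted p-values by edgeR of 0.857, 0.666 and 0.527. Relative to the median of all promoters, Relb was higher by 0.20 and Rel and Nfkb1 were lower by less than their standard errors. These p-values do not show that the 3 promoters were at the level of input.

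**Figure D2:**
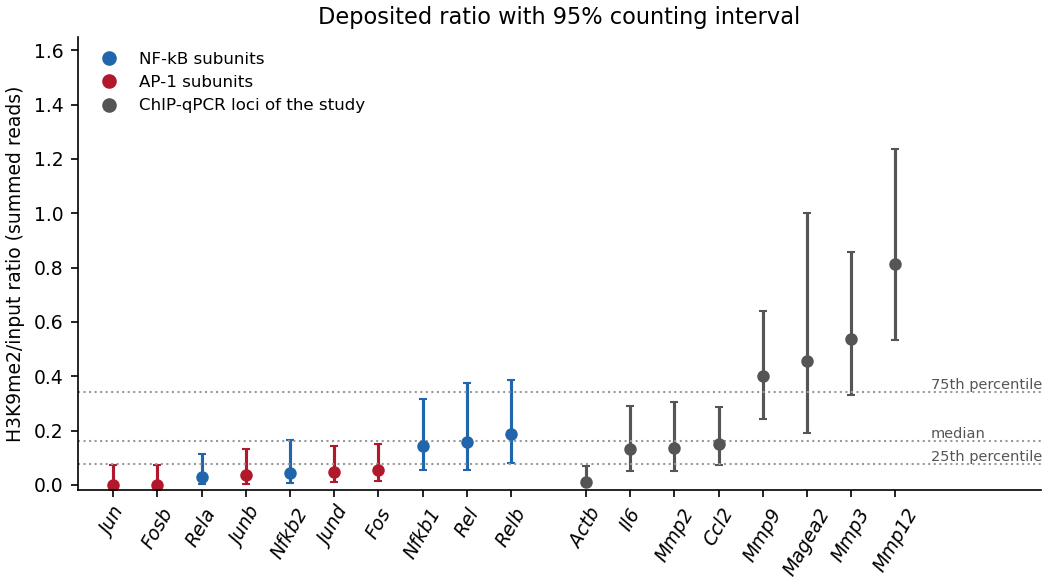
Deposited H3K9me2/input ratio of each NF-kB (blue) and AP-1 (red) subunit promoter, in order of size, beside ChIP-qPCR reference promoters (grey), with bars for the 95% exact binomial interval (counting error only) and dotted lines at the quartiles of all promoters. Jun, Fosb, Rela, Junb, Nfkb2, Jund and Fos sit below the 25th percentile of 0.0780, Nfkb1, Rel and Relb sit near the median of 0.162, and Mmp9, Magea2, Mmp3 and Mmp12 lie above the 75th percentile of 0.343.

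No neighbours in the order of the ratio differed beyond counting error after adjustment. Of the 45 pairs of the 10 promoters, 8 had an unadjusted p under 0.05 by a two-sided Fisher's exact test on the summed counts, and 0 passed adjustment over the 45 pairs. The smallest adjusted p was 0.0669, for Relb against Fosb and for Relb against Jun. Relb and Fosb lie 319 kb apart on chromosome 7, with 9 ChIP and 48 input reads at Relb and 0 ChIP and 53 input reads at Fosb. That test treats each read as a separate molecule and ignores how far the experiments differed.

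Summing reads over the genes narrowed the counting error. Over the 10 promoters there were 15 ChIP and 215 input reads in v102 and 20 and 330 in v134. The pooled ratio was 0.266 of that of all other promoters in v102 (interval 0.146 to 0.449) and 0.286 in v134 (interval 0.173 to 0.449). The experiments thus gave nearly the same pooled value, with neither interval reaching 1. For the 5 AP-1 promoters, 3 ChIP reads against 115 input reads in v102 and 6 against 183 in v134 gave 0.0995 (interval 0.0202 to 0.298) and 0.155 (interval 0.0561 to 0.344) of the ratio elsewhere. For the 5 NF-kB promoters, 12 against 100 and 14 against 147 gave 0.458 (interval 0.229 to 0.836) and 0.450 (interval 0.240 to 0.779). The AP-1 value was lower than the NF-kB value in both experiments. Their intervals overlapped in each experiment alone. With both experiments summed, the AP-1 value was 0.131 (interval 0.0594 to 0.253) and the NF-kB value 0.458 (interval 0.293 to 0.687), and these intervals did not overlap. They cover counting error only, and the difference was not tested. The NF-kB sum rests mainly on Relb, Rel and Nfkb1, which gave 9, 6 and 7 of its 26 ChIP reads. The reference, 0.230 over both experiments, is a ratio of summed reads and lies above the median promoter (0.162). Before division by it, the pooled ratio was 0.0642 for the 10, 0.105 for NF-kB and 0.0302 for AP-1. The median ratio in the highest quartile of GC content, which holds all 10, was 0.0800. The pooled values were not tested against GC-rich promoters.

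All 10 promoters were rich in GC and CpG around their GENCODE starts, though at Jund not at its RefSeq start. Within 1 kb of the start, GC content ran from 56.4% at Fosb to 65.0% at Jund, compared with a median of 50.9% over 22299 promoters with a matched start. The ratio of observed to expected CpG ran from 0.559 at Nfkb2 to 0.908 at Rel, compared with a median of 0.440. All 10 fell in the highest quartile of GC content, in which the median ratio was 0.0800. From the lowest to the highest GC quartile, 4.44%, 12.9%, 20.1% and 33.1% of promoters were below input and 46.7%, 15.0%, 5.93% and 2.29% above. The count of 7 of 10 therefore stands beside 17.0% of all promoters and 33.1% of GC-rich ones. After removal of the trend of the log2 ratio with GC content, the 5 AP-1 promoters were at percentiles 3.68 (Fosb), 8.07 (Jun), 17.1 (Fos), 20.4 (Junb) and 36.95 (Jund), and Rela and Nfkb2 at 14.6 and 23.0. Nfkb1, Rel and Relb were at percentiles 71.2, 76.0 and 83.3, so these 3 lay above the median and the other 7 below it. The part of GC content in the low counts was not tested further.

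**Figure D3:**
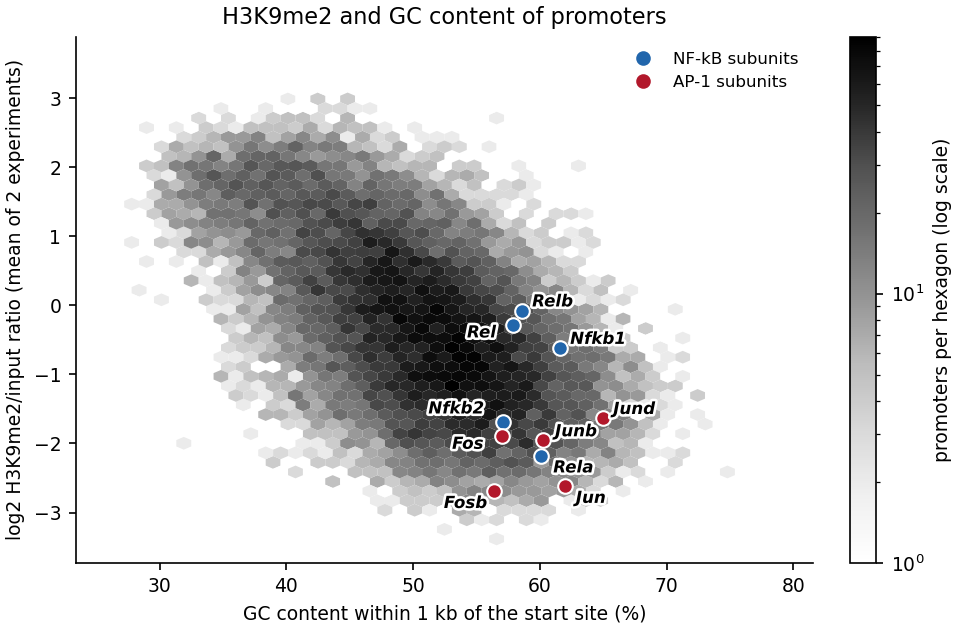
Mean log2 H3K9me2/input ratio of 2 experiments against GC content within 1 kb of the start for 22299 promoters (grey hexagons, darker with more promoters), with the NF-kB subunits in blue and the AP-1 subunits in red. All 10 lie at a GC content of 56.4% or more, with Relb, Rel and Nfkb1 in the upper part of the cloud at that GC content and Jun and Fosb lowest of the 10.

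Among the promoters of genes that act on these factors, some were below input and none was above. No list was tested as a set, and each is given by its counts beside 17.0% of all promoters below and 18.6% above input. The lists had a median GC content between 52.5% and 58.2%, in the third or highest GC quartile. In these quartiles 20.1% and 33.1% of promoters were below input, and 5.93% and 2.29% above. The part of GC content in the counts of the lists was not tested. Of 9 inhibitors and relatives of NF-kB, 1 was below input, Nfkbie, which encodes an inhibitor of the I kappa B family, with 1 and 0 ChIP reads against 21 and 36 input reads (log2 fold change -3.46, adjusted p by edgeR 0.00560). Nfkbia, the inhibitor that NF-kB itself induces, had 1 and 1 against 17 and 27, with an adjusted p by edgeR of 0.0577. Of 13 IKK and adaptor genes, 4 were below input. Tab2 and Ikbkg, which encode an adaptor of the kinase TAK1 and the regulatory subunit of the IKK complex, had 0 ChIP reads in both experiments, against 36 and 32 summed input reads, and Ripk1, a kinase of the tumour necrosis factor receptor complex, had 0 and 4 ChIP reads against 21 and 51 input reads. Of 9 other AP-1 family genes, Fosl1 and Fosl2, which encode further FOS proteins, were below input (log2 fold changes -3.52 and -2.35, adjusted p by edgeR 0.00427 and 0.00840). Of 15 MAP kinase genes 5 were below input, led by Mapk3, Map2k1 and Map2k4, which encode ERK1, its activator MEK1 and a JNK activator, with log2 fold changes of -2.68, -2.64 and -2.30. Of 11 genes of IL-1 and TNF receptors and their adaptors 4 were below input, with the decoy receptor gene Il1r2 at -2.75, the adaptor gene Myd88 at -2.55 and the kinase gene Irak2 at -1.86 on the log2 scale. The median log2 fold change of the 5 lists lay between -1.43 and -0.82, compared with -2.17 for the 10 subunits and -0.35 for all promoters. Together with the inducible targets, 20 of the 83 listed promoters were below input, beside 17.0% of all promoters. With the block it was 10 of the 83, beside 8.30% of all promoters.

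The inducible targets of NF-kB and AP-1 were called in both directions, at about the shares seen over all promoters. Of 26 target promoters 5 were above input, 4 below and 17 neither, compared with 18.6% of all promoters above and 17.0% below. The median log2 fold change of the targets was -0.49. Above input, the largest log2 fold changes were 1.97 at the collagenase gene Mmp13 (standard error 0.41) and 1.95 at Mmp12 (standard error 0.39), which encodes macrophage elastase. The cytokine gene Il1b followed at 1.54 (standard error 0.48). Each of these promoters had an adjusted p by edgeR of 0.00630 or less. Il1a, the gene next to Il1b at a distance of 61.2 kb, was also above input with 11 and 15 ChIP reads against 18 and 37 input reads. Tnf, Nos2 and Lif were among those below, with log2 fold changes of -3.24, -2.88 and -2.20. The pooled ratio of the 26 targets was 1.08 of that of all other promoters in v102 (interval 0.885 to 1.30) and 1.02 in v134 (interval 0.874 to 1.18). The subunit genes gave 0.266 and 0.286, with intervals that did not overlap those of the targets in either experiment. These intervals cover counting error only, and the difference was not tested. Mmp12, Mmp13, Mmp3 and Mmp9 gave 44, 37, 29 and 26 of the 356 ChIP reads of the targets over both experiments. The paper had reported high H3K9me2 at Mmp3, Mmp9 and Mmp12 from these same data. Target promoters had a median GC content of 47.1%, compared with 59.3% at the subunit promoters, and the part of this difference was not tested.

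**Figure D4:**
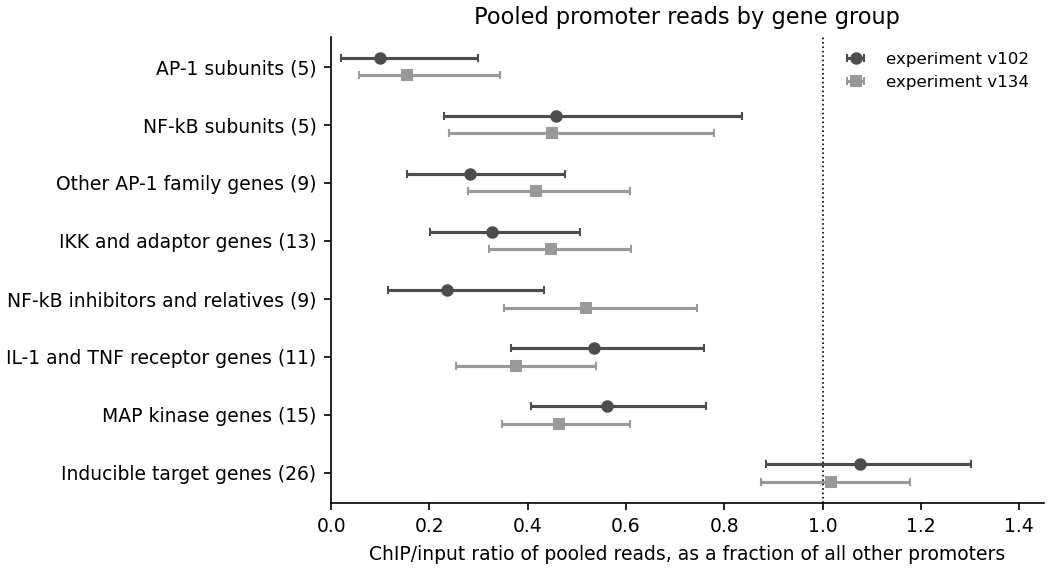
Pooled ChIP/input ratio of each gene group as a fraction of the ratio of all other promoters, by experiment (circles, v102; squares, v134), with 95% exact binomial intervals (counting error only), a dotted line at 1 and the number of promoters in brackets. AP-1 subunits lie lowest at 0.0995 and 0.155, the other pathway groups lie between 0.236 and 0.562, and the inducible targets lie at 1.08 and 1.02.

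At the loci used by the study for ChIP-qPCR, Actb, the negative control, had 0 and 1 ChIP reads against 31 and 53 input reads (ratio 0.0119), and Magea2, the positive control, had 3 and 7 against 6 and 16 (ratio 0.455). The ratios of the 10 were all lower than those of Mmp3 (0.537), Mmp9 (0.400) and Mmp12 (0.815). By edgeR, Mmp3 and Mmp12 were above input, whereas Magea2 and Mmp9 were not called (adjusted p 0.17 and 0.0628). Relb, Rel and Nfkb1 were of the size of Ccl2 (0.151), Mmp2 (0.137) and Il6 (0.132). By ChIP-qPCR the paper found Il6 enriched for H3K9me2 in aortic medial tissue, though not in cultured mouse VSMCs. Il6 is therefore not an unmarked reference in the study. The paper showed that enrichment beside a control antibody and Actb, not beside the median promoter. Here the ratio of Il6 was above that of Actb (0.0119) and below the median of all promoters (0.162). The sequencing and the ChIP-qPCR thus have different references, and whether they differ at Il6 was not tested. Marker promoters of the labelled tissue can be checked only for H3K9me2, since expression was not used here. Of 6 contractile smooth muscle promoters 2 were below input (Myh11 and Lmod1), 1 was above (Smtn) and 3 were not called. Of 4 endothelial promoters Pecam1 was below input and 3 were not called, of 3 leukocyte promoters Ptprc was above, and of 3 fibroblast promoters Pdgfra was below. These values do not show which cells were present.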

How the data were processed

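The authors deposited 1 table that holds the raw read count of each of the 4 libraries, both sums over experiments and the ratio of these sums, ChIP over input. The deposited ratio equals that quotient at all 26354 promoters within 1e-08. Per the labels and the paper, reads were trimmed with Trim Galore 0.4.2 and cutadapt 1.9.1, aligned to GRCm38 with Bowtie2 2.2.7 and counted in SeqMonk within 1 kb of the start site, and promoters with fewer than 20 input reads were removed. The lowest summed input in the table is 21. Which annotation release was used, and whether duplicates were removed, is not given in the sources used here.

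ChIP and input counts of all rows were tested in R 4.3.3 with edgeR 4.0.16 (TMM scaling, quasi-likelihood F-test, Benjamini-Hochberg adjusted p under 0.05). DESeq2 1.42.0 was one alternative, beside the experiment as a block, library totals, a minimum of 20 reads in each input and leaving out mitochondrial rows. The standard error is the size of the log2 fold change divided by the square root of F. The log2 ratio used counts divided by the table total of each library, 1 read as pseudocount, averaged over the experiments. Ratio intervals are exact binomial (Clopper-Pearson) at 95% from the share of ChIP reads, and a count of 0 was taken to allow 3 reads. Intervals and floors cover counting error only. GC content came from GRCm38 at GENCODE M21 starts, which matched 84.6% of symbols, and its trend was removed by lowess (fraction 0.3). In simulated counts for 26354 promoters, ChIP against input, 90% of 50 promoters with a 4-fold rise were called, and so were 8% of 50 with a 2-fold rise, 10% of 50 lowered to 0.25, 0% of 50 lowered to 0.5 and 1 of 26154 without a change. In the data 4484 promoters were below and 4902 above input. With so few changed promoters the Benjamini-Hochberg threshold is stricter in the simulation, so its shares do not carry over to the data.

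The labels give an associated input for each ChIP and so pair the libraries by experiment number. The fit behind the main counts had no term for experiment, and the fit with it as a block was an alternative. Across promoters, the v102 to v134 differences in ChIP and in input correlated at 0.104. Chi-square per degree of freedom was 1.52 between ChIP libraries and 1.28 between inputs, above sampling noise, and all 4 libraries were kept as separate. The members and lists were chosen with earlier results of these data known. Named genes are the 10 subunits, the study's ChIP-qPCR loci, up to 3 promoters above and 3 below input with the largest log2 fold change in each list, and marker promoters, with Nfkbia and Il1a added after their values were seen. Adgre1, a leukocyte marker, is not listed in the table. Other steps ran in Python 3.11.15 (matplotlib 3.10.9, statsmodels 0.14.6, scipy 1.17.1, pandas 2.3.3).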

Additional observations from a re-analysis of the deposited data

How the results depend on the processing

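Over the alternative fits the 10 promoters had 35 log2 fold changes with a defined p. All 35 kept their direction, and 27 kept their side of the threshold. Those 27 include 3 each for Relb, Rel and Nfkb1, which were not called in any of these fits. The 8 that lost it were Nfkb2, Junb, Jund and Fos with the experiment number as a block, Nfkb2 without mitochondrial rows, and Junb, Jund and Fos when both inputs had to hold 20 reads or more. With the block 3 of the 10 were below input, and under that minimum 2 of the 5 that passed it (Rela and Fosb, beside 12.0% of all promoters). DESeq2 left the adjusted p of all 10 undefined, so it gives no count for them. It likewise left 73 of the 83 pathway promoters undefined. Library totals in place of TMM shifted the median promoter by -0.14 on the log2 scale. With them 7 of the 10 were below input, compared with 21.5% of all promoters. Over all promoters 4484 were below and 4902 above input. The number below was 2187 with the block, 29 by DESeq2 and 1678 under the input minimum, where 13993 promoters are tested, and the number above was 3026 by DESeq2 and 2446 with that minimum. Of the 83 pathway promoters, 20 were below input, and 10 with the block, beside 17.0% and 8.30% of all promoters.

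The pooled ratio, 0.279 of that of all other promoters over both experiments, was 0.266 to 0.286 without each replicate. It was 0.252 with mitochondrial rows left out of the reference, and 0.299, 0.227, 0.249, 0.245, 0.309, 0.294 and 0.309 without Rela, Relb, Rel, Nfkb1, Jun, Junb and Fosb in turn. The median percentile of the log2 ratio over the 10, 10.2, was 15.5 to 21.2 without each replicate and 21.7 after removal of the GC trend. The cause was not tested. A single experiment has 1 ChIP and 1 input and no residual degrees of freedom, so edgeR was not run without a replicate. No pair of the 10 differed without either replicate. With 0 to 9 ChIP reads a promoter, depth limits each single value.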

Other observations

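Several of these genes lie near each other, and their counts can be set side by side. On chromosome 12, Jdp2 and Batf, which encode AP-1 family proteins, start 125 kb and 213 kb from Fos. The Fos promoter had 0 and 4 ChIP reads in experiments v102 and v134 against 25 and 47 input reads, Jdp2 had 1 and 2 against 25 and 28, and Batf had 5 and 2 against 19 and 34. On chromosome 7, Bcl3, an NF-kB cofactor gene, starts 193 kb from Relb and had 1 and 4 ChIP reads against 28 and 36 input reads, compared with 5 and 4 against 19 and 29 at Relb. On chromosome 19, Fosl1 starts 189.9 kb from Rela, and the promoters had 0 and 1 and 0 and 2 ChIP reads. On chromosome 9, Birc2 and Birc3, which encode ubiquitin ligases of the NF-kB pathway, start 391 kb and 427 kb from Mmp3. Birc2 had 2 and 3 ChIP reads against 22 and 38 input reads and Birc3 had 2 and 13 against 18 and 42, compared with 10 and 19 against 15 and 39 at Mmp3, and neither Birc promoter was called by edgeR (adjusted p 0.120 and 0.696). These promoters were chosen after their values were seen, and differences between neighbours were not tested.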
